A study of Mus musculus with 6 samples.

Results

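Cytosolic ribosomal protein genes were examined in the quadriceps of AR97Q mice, with and without running exercise. These genes encode the protein components of the ribosome that translates messenger RNA in the cytoplasm. A gene was included where its array probe carried a RefSeq accession whose mouse symbol is Rpl or Rps with a number and at most a suffix a, l or x, or Rplp0, Rplp1, Rplp2 or Rpsa. Kinases of ribosomal protein S6 and pseudogenes were left out. This gave 80 genes of the 44931 genes and transcripts on the array, carried by 145 probes. Of the 80, 79 were tested. The remaining gene, Rpl10l, a paralog of Rpl10 known from the testis, was not well above background on any array.

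AR97Q mice carry a transgene that models SBMA (spinal and bulbar muscular atrophy), a disease of motor neurons and muscle caused by an expanded CAG repeat in the androgen receptor gene. All 6 animals were male AR97Q mice on a C57BL/6J background and were 9 weeks old, so the transgene was shared by both groups and wild-type muscle was not analysed here. The 3 mice of the exercise group had run on a forced wheel for 60 min a day at a speed of 5 m/min, on 5 days of each week over 4 weeks, starting at 5 weeks of age. The 3 mice of the sedentary group had not. Total RNA of each quadriceps was labelled with Cy3 and hybridised to 1 Agilent 1-colour array. The comparison asks how the ribosomal protein messages of this muscle differed after the running period. Phosphorylation of ribosomal protein S6, translation and protein levels are not measured by these arrays.

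Ribosomal protein genes are transcribed at high levels in nearly all cells, and their products are assembled with ribosomal RNA into a large and a small subunit. Most of their messages begin with a C followed by a run of pyrimidines, the terminal oligopyrimidine (TOP) motif, through which mTOR signalling controls their translation. A few members have paralogs with restricted expression. The best known in muscle is Rpl3l, which is made in heart and skeletal muscle and takes the place of Rpl3 in the large subunit.

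The starts of 5 members with an annotated TOP motif are shown as examples of it. Those of Rpl3l, the muscle isoform, and Rps27l are shown as starts where no run opens at the annotated base. Promoter sequences from RefSeq (GRCm38.p6) matched 61 of the 80 genes, and Rpl3 was not among them. Each line below gives 10 bases before and 20 bases from the annotated start on, with the pyrimidine run that opens the message in capitals where it is at least 5 bases long.

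Rps6 (chr4:86857348-86857377, minus strand): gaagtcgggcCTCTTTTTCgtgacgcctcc
Rpl35 (chr2:39005112-39005141, minus strand): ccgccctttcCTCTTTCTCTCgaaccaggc
Rpl15 (chr14:18270967-18270996, minus strand): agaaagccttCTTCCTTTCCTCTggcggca
Rplp2 (chr7:141447641-141447670, plus strand): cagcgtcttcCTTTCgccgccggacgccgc
Rps27 (chr3:90213629-90213658, minus strand): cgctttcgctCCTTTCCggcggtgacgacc
Rps27l (chr9:66946076-66946105, plus strand, the upstream of 2 annotated starts): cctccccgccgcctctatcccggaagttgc
Rpl3l (chr17:24727816-24727845, plus strand, the upstream of 2 annotated starts): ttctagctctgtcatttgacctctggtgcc

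The run was 9 bases in Rps6, 11 in Rpl35, 13 in Rpl15, 7 in Rps27 and 5 in Rplp2, and no run began at either annotated start of Rpl3l or of Rps27l. A run of at least 5 pyrimidines that began with C at the annotated start was present in 14 of 73 member promoters (19.2%) and in 2.51% of the 32851 promoters in the table. This share depends on where the start was annotated, since a start placed 1 base away hides the run. In the Rps27l window shown, a run of 5 pyrimidines, cctct, opens 1 base after the annotated start.

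In promoters of 300 bases searched on both strands, the GABP core CCGGAAG was present in 35.6% of the member promoters and in 8.86% of all promoters, and the element TCTCGCGA in 15.1% and 0.995%. Neither was present at the starts of Rpl3l. Instead, the E-box CAGCTG lay 20 to 15 bases before its upstream start and a match to the MEF2 consensus 123 to 114 bases before its downstream start. CAGCTG was present in 5.48% of member promoters and in 16.3% of all promoters, and the MEF2 consensus in 1.37% and 3.19%, so that Rpl3l was the only 1 of the 61 genes with a MEF2 match. E-boxes and MEF2 sites are elements through which myogenic factors bind, and a match of letters does not show binding. The 2 windows of Rpl3l follow, with the match in capitals.

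Rpl3l, upstream start (chr17:24727796-24727825, plus strand): tgggatctggCAGCTGagtgttctagctct
Rpl3l, downstream start (chr17:24732552-24732581, plus strand): aaatgtcagcTTAAAAATAGcaccagccct

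Array values are given as log2 signal relative to the 75th percentile of the same array, so that a value of 0 is a gene as bright as that percentile. The percentile itself was 251 to 257 in the exercise group and 310 to 384 in the sedentary group before scaling. The share of probes well above background was 54.6% to 59.9%, with no saturated spots. Each array's barcode closes with position digits, of which the first was read here as the strip of the slide. The sample labels name no strip, and whether all arrays shared a slide was not checked. So read, the 3 exercise arrays and sedentary array 1 lay in the first strip and sedentary arrays 2 and 3 in the second. Sedentary array 1 was also the sedentary array nearest to the exercise arrays in the 75th percentile. It was nearest in the signals of Rpl3l and Rpl3 too, though not in the median of the members. Strip and group therefore overlap in part, and the only comparison within a strip sets the 3 exercise arrays against 1 sedentary array. The muscle markers Acta1, Ckm, Myh4, Tnnt3, Mylpf and Des were among the brightest genes, as the labelled tissue requires.

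Under the reported scaling, few ribosomal protein messages passed the test. The direction of the class as a whole turned with the scaling, as given below. With limma across all 25005 genes and transcripts tested and a false discovery rate (FDR) of 0.05, 2 of the 79 members, Rpl3l and Rpl37, were higher in the exercise group and 0 were lower, against 11.5% higher and 6.12% lower of everything tested. Rpl37 was kept through its exercise arrays alone, since its probe was well above background on 3 exercise and 0 sedentary arrays, so its call had to favour exercise and leaves Rpl3l as the 1 call between measured groups. Without a correction for multiple testing, 12 members had a limma p under 0.05, against 37% of everything tested. The members' share was below the background in both counts. Rpl3l also exceeded a log2 fold change of 1, the size required of differentially expressed genes (DEGs). Of everything tested, 1.72% were DEGs in the upward and 1.06% in the downward direction. Rpl37 exceeded that size too, but in a direction that the filter had fixed.

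The median log2 fold change of the 79 members was 0.16, beside a median of 0.026 over all genes tested, and 75 members were above 0 under this scaling against 52.9% of everything tested, although the median was −0.19 after quantile normalization and −0.32 without scaling. The standard error of a member's fold change had a median of 0.10. In 23 members every exercise array was above every sedentary array, where 25% of everything tested was so placed. In 1 member, Rpl3, every exercise array was below every sedentary array, against 18.2% of everything tested. The large subunit had 46 tested members with a median of 0.16, the small subunit 30 with a median of 0.14, and the stalk 3 with a median of 0.18. Apart from Rpl3l, Rpl3 and Rpl37, the members lay between −0.13 (Rps21) and 0.31 (Rps27l).

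All members except Rpl39l and Rpl37 were at or above the 94.7th percentile of brightness among tested genes. The brightest 10% of all genes had a median log2 fold change of 0.21, which was above the members' median. Of the 78 mitochondrial ribosomal protein genes, which encode the ribosome of the organelle, 49 were higher in the exercise group at the FDR of 0.05 and 0 were lower. That was 62.8%, against 11.5% of everything tested called higher, with a median log2 fold change of 0.37. The medians of the brightest 10% and of the mitochondrial genes hold under the reported scaling. They were not computed without scaling, where the median of all genes tested was −0.45.

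Rpl3l, on chromosome 17, rose. Its log2 signal was 6.13, 6.11 and 6.13 on the 3 exercise arrays and 5.32, 4.63 and 4.39 on the 3 sedentary arrays. The exercise arrays were nearly equal and all lay above the sedentary arrays, of which array 1 was the highest. The log2 fold change was 1.34 ± 0.24 (SE), or 2.54-fold, with a limma adjusted p of 0.0241. Within the first strip, against sedentary array 1 alone, it was 0.80, and with the strip as a block the limma adjusted p was 0.153. Without sedentary array 1 it was 1.61 (limma adjusted p of 0.00847). Leaving out any other array ended the call, with a limma adjusted p of 0.0634 to 0.0963. Those runs called at most 0.0040% of everything tested, against 22.1% without sedentary array 1.

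Other muscle genes moved with it. Of the 6 muscle markers, 5 were higher at the FDR of 0.05, among them Ckm, the muscle creatine kinase, with a log2 fold change of 1.5 and Mylpf, a fast myosin light chain, with 1.09. The summed linear signal of the 6 ranged from 4029 to 4542 in the exercise group and from 1904 to 2748 in the sedentary group. Their part in the Rpl3l result was not tested. In whole muscle, more fibres and more RNA per fibre cannot be told apart.

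Rpl3, on chromosome 15, encodes the broadly expressed protein near the peptidyl transferase centre that Rpl3l replaces. Its log2 signal was 5.40, 5.61 and 5.38 in the exercise group and 5.74, 6.38 and 6.17 in the sedentary group. All exercise arrays were below all sedentary arrays, and sedentary array 1 was again the one nearest to the exercise arrays. The log2 fold change was −0.63 ± 0.18 (SE), with a limma adjusted p of 0.0584, so the call missed the threshold. The 3 probes of the gene gave −0.63, −0.71 and −0.86. The value stayed below 0 under every alternative run and passed the threshold in 9 of the 21 that gave an adjusted p, among them quantile normalization (−0.87) and the analysis without sedentary array 1 (−0.81, limma adjusted p of 0.0165). Within the first strip it was −0.27.

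The 2 paralogs were also compared within each array, where a scaling factor of the array cancels. The log2 signal of the Rpl3l probe minus that of the Rpl3 probe was 0.72, 0.50 and 0.75 in the exercise group and −0.42, −1.75 and −1.78 in the sedentary group. Every exercise array was above every sedentary array. The difference moved by 1.98, with an exact two-sided permutation p of 0.1, the smallest that 3 against 3 arrays allow, and 0.233 after Benjamini-Hochberg adjustment over 7 paralog pairs. It was 1.08 within the first strip and 1.74 to 2.42 when 1 array was left out. Because different probes bind with different strength, the sign of the difference does not say which message was the more abundant.

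The other pairs moved less. Rpl22l1, a paralog of Rpl22 outside the symbol rule, moved by 0.51 against its parent, and Rpl36al by 0.30 against Rpl36a. In both pairs the groups did not overlap, with the same exact permutation p of 0.1. The values were 0.24 for Rpl7l1 against Rpl7 (exact permutation p of 0.2), 0.15 for Rps27l against Rps27 (0.2), 0.12 for Rps4l against Rps4x (0.3) and 0.03 for Rpl39l against Rpl39 (0.7). Rps4l is annotated as a transcribed pseudogene and is not among the members. With 3 arrays per group, none of the 7 could pass a threshold of 0.05.

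**Figure D1:**
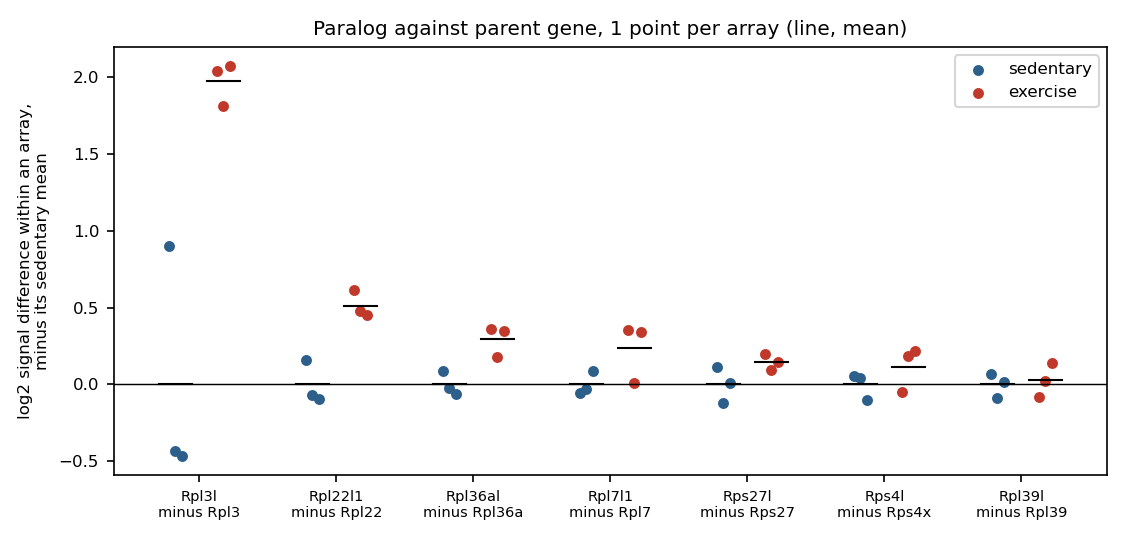
Log2 signal of a paralog minus that of its parent gene within each array (vertical axis), set to 0 at the mean of the sedentary arrays, for 7 pairs (horizontal axis), with 1 point per array and a line at each group's mean. The Rpl3l and Rpl3 pair moved by 1.98, the Rpl22l1 and Rpl22 pair by 0.51, and the groups also stayed apart for Rpl36al and Rpl36a.

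Rpl37, a protein of the large subunit encoded on chromosome 15, was measured by 1 dim probe. The probe lay at the 4.64th percentile of brightness, far from the other members. Whether it reports the main Rpl37 message was not tested. Its log2 signal was −3.78, −4.11 and −2.72 in the exercise group and −5.01, −5.14 and −4.92 in the sedentary group, where it was not well above background on any array. Set against the lowest signal well above background on each sedentary array, the exercise group was 2.45-fold higher under the reported scaling. That floor is the lowest over all probes, so a probe not well above background can lie above it. The ratio is therefore not a strict lower bound. The limma adjusted p was 0.0381, from a fit that takes the sedentary signals at their measured value. The fitted log2 fold change was 1.48 as reported, 1.01 without scaling and 0.58 with normexp background correction. The size of the fitted change therefore depends on the processing. The probe passed the filter through the exercise group only, and it was not tested where all 6 arrays had to be well above background.

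**Figure D2:**
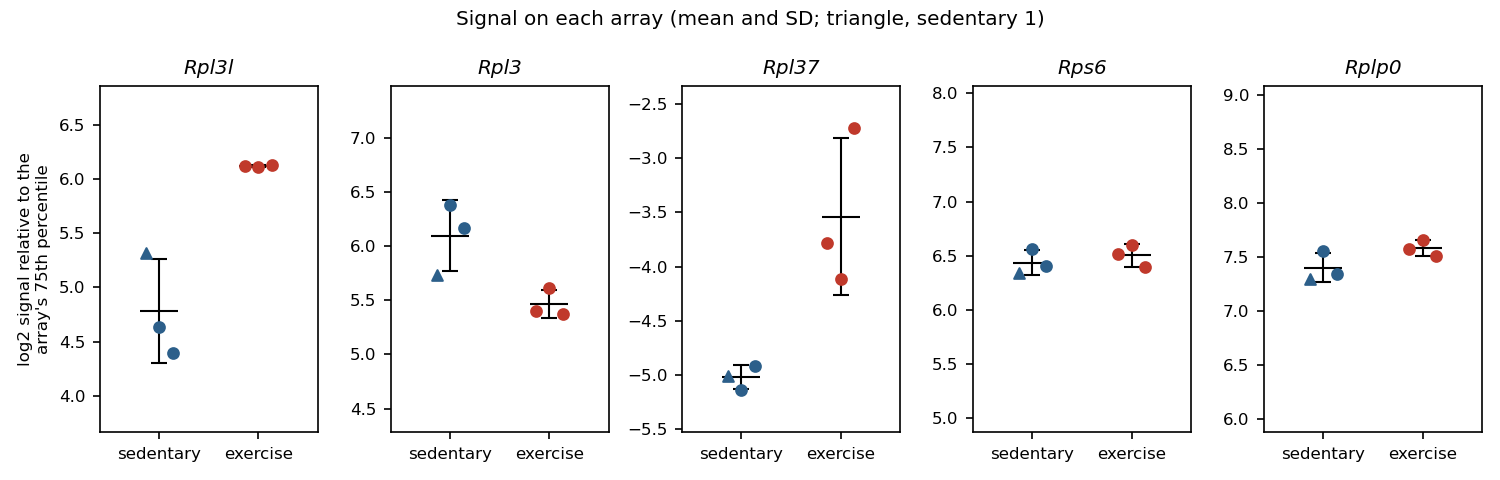
Log2 signal relative to the 75th percentile of the array (vertical axis, the same span in each panel) for 5 genes on the 3 sedentary and 3 exercise arrays, with the mean and SD of each group and sedentary array 1 as a triangle. Rpl3l and Rpl37 lie higher and Rpl3 lower on all exercise arrays, and the 2 groups of Rps6 and of Rplp0 overlap.

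Rps6, the small subunit protein phosphorylated by the S6 kinases, was at 6.52, 6.60 and 6.39 in the exercise group and 6.34, 6.56 and 6.41 in the sedentary group. The groups overlapped, and the log2 fold change was 0.066 ± 0.10 (SE, limma adjusted p of 0.67). Rpsa, the small subunit protein also known as the laminin receptor, was at 7.68, 7.78 and 7.72 with exercise and at 7.45, 7.5 and 7.38 without. Its exercise arrays all lay above its sedentary arrays, and its log2 fold change of 0.29, which was −0.19 without scaling, missed the threshold (limma adjusted p of 0.0585).

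The stalk proteins Rplp0, Rplp1 and Rplp2 form the lateral arm of the large subunit that engages the elongation factors. Rplp2 was at 8.69, 8.77 and 8.62 in the exercise group and 8.38, 8.52 and 8.32 in the sedentary group, with groups apart and a log2 fold change of 0.29 (limma adjusted p of 0.078). Rplp0 and Rplp1 overlapped between groups, at 0.18 and 0.17. Without scaling, all 3 stalk values were below 0, at −0.29 for Rplp0, −0.31 for Rplp1 and −0.18 for Rplp2.

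Rps27l, a paralog of Rps27 known as a target of p53, was at 7.03, 7.02 and 6.85 with exercise and 6.67, 6.62 and 6.69 without. All exercise arrays were above all sedentary arrays, and the log2 fold change of 0.31, which was −0.17 without scaling, missed the threshold (limma adjusted p of 0.0619). Its parent Rps27 was at 0.16. Rpl39l, known from the testis, was dim and had a log2 fold change of 0.12 beside 0.088 for Rpl39. Rpl32l was at 0.17 beside 0.13 for Rpl32. Rpl10 was at 0.085 and the X-linked Rps4x at 0.018, and neither passed.

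In 5 members, Rpl10a, Rpl36a, Rps15a, Rps20 and Rps4x, the kept probes of a gene disagreed in sign. The brightest probe, which was the one used, gave 0.20 for Rpl10a, −0.0097 for Rpl36a, 0.14 for Rps15a, 0.095 for Rps20 and 0.018 for Rps4x. For Rps15a the dimmest of 3 probes gave −0.23. None of the 5 passed the test, and 44 members in all had more than 1 kept probe.

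Members varied together from array to array. Around each gene's mean over the 6 arrays, the median deviation of the members was 0.068, 0.17 and −0.017 on the exercise arrays and −0.13, 0.031 and −0.12 on the sedentary arrays. Exercise array 3 was thus below sedentary array 2, and the groups overlapped in this measure. Across the 77 bright members, the correlation of a gene with the median of the other members over the 6 arrays had a median r of 0.857. The lowest values belonged to Rpl3 (−0.067), Rps21 (0.15), Rpl7 (0.30), Rpl3l (0.38) and Rps27l (0.51). These are descriptions over 6 arrays that share a scaling factor.

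Genes around the ribosome were counted from lists. Outside the symbol rule, Rpl22l1 was higher at the FDR of 0.05, with a log2 fold change of 0.54. Of 9 elongation factors, 2 were higher (22.2%, against 11.5% of everything tested), Eef1a2 (0.56), the form of muscle and neurons, and Eif5a (0.36). Of the 9, 7 were above 0 and 2 below. Eef1a1, the paralog of Eef1a2, was at −0.48 with all exercise arrays below all sedentary arrays, and missed the threshold (limma adjusted p of 0.0918). Of 34 initiation factors, 4 were higher and 0 lower, led by the cap-binding protein Eif4e (0.66) and Eif3j1 (0.50). That share, 11.8%, was close to the 11.5% of everything tested. Without scaling, Eif5a was below 0 (as under quantile normalization) and Rpl22l1, Eef1a2, Eif4e and Eif3j1 were at 0.071, 0.084, 0.18 and 0.024, none past the test.

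Of 77 ribosome biogenesis factors, 6 were higher and 1 was lower. That was 9.09% called, below the 17.6% of everything tested. Emg1, an rRNA methyltransferase of the small subunit, rose by a log2 fold change of 0.58 and the nucleolar protein Lyar by 0.47. Of 18 genes of RNA polymerase I and rDNA transcription, 2 were higher (11.1%, also below 17.6%), the subunits Cd3eap (0.35) and Polr2l (0.34). Without scaling, Lyar, Cd3eap and Polr2l were below 0 and Emg1 was at 0.11, not past the test. The median over the biogenesis factors was 0.031, close to that of all genes.

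Among 11 genes with a TOP motif outside the ribosome, Tpt1, the translationally controlled tumour protein, was the 1 that was higher (0.38, and below 0 under quantile normalization and without scaling). Of 8 regulators of TOP messages, Cnbp, which binds them, was higher (0.48, but 0.0049 without scaling, limma adjusted p of 0.976) and Tia1, which represses their translation under stress, was lower (−0.68). Among 11 S6 kinases and phosphatases, Rps6ka2, a kinase of the RSK family, was higher (0.75, and 0.27 without scaling, not past the test). Rps6kb1, the S6 kinase downstream of mTOR, was at −0.037 (limma adjusted p of 0.771). Called shares were 9.09% of the TOP genes, 25% of the regulators and 9.09% of the S6 kinases and phosphatases, against 17.6% of everything tested.

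Marker lists of other cells gave few calls. No marker of macrophages, endothelial cells, fibroblasts, lymphocytes, red blood cells or cycling cells passed the limma test at the FDR of 0.05. Pax7, the transcription factor of satellite cells, was lower (−0.60). All 3 tested satellite cell markers were below 0. Their summed linear signal was 2.29 to 2.46 in the exercise group and 2.80 to 3.37 in the sedentary group. All 5 Schwann cell markers were below 0, of which 1 was called lower. The adipocyte markers were mixed, with Lep called higher (0.35, and −0.12 without scaling) and Cidec (−0.997), Adipoq (−0.96) and Plin1 (−0.92) not past the test. The summed linear signal of the fibroblast markers ranged from 546 to 595 in the exercise group and from 505 to 669 in the sedentary group, and that of the macrophage markers from 39.4 to 47.2 and from 40.4 to 45.2.

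A scaling by 1 factor per array moves all genes by the same amount. Without it, Rpl3l was at 0.87, Rpl3 at −1.11 and the median of the members at −0.32. Over all alternatives run, Rpl3l lay between 0.80 and 1.61 and Rpl3 between −1.11 and −0.27, the ends nearest to 0 being those within the strip, while the median of the members crossed 0. With no scaling, 9 members passed the FDR of 0.05, of which 2 were higher and 7 lower, while 47.6% of everything tested was called.

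**Figure D3:**
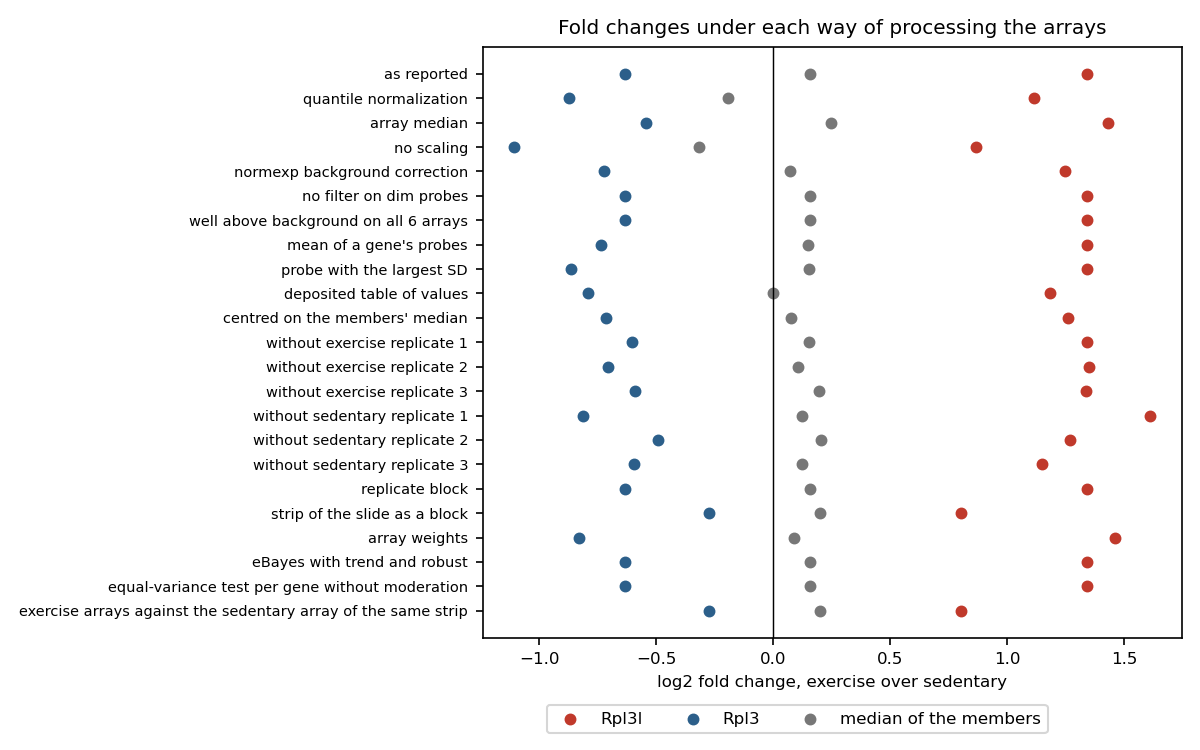
Log2 fold change of exercise over sedentary (horizontal axis) of Rpl3l, Rpl3 and the median of the members, under the reported processing and each alternative (vertical axis). Rpl3l stayed above 0.80 and Rpl3 below −0.27, whereas the members' median lay on either side of 0, from −0.32 without scaling to 0.25 with the array median.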

How the data were processed

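The authors hybridised Cy3-labelled quadriceps RNA (RNA integrity number 8.4 to 9.2) of 3 exercise and 3 sedentary mice to Agilent mouse arrays designed on mm9. The deposited intensity of each spot is the background-subtracted processed signal of Feature Extraction 12.1.0.3. The deposited table of normalized intensities equals that signal times 1 factor per array.

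Log2 processed signals were centred on each array's 75th percentile. Outlier spots were dropped, and a probe was kept if 3 or more of the 6 arrays had it well above background. Probes were named by RefSeq accession through a GRCm38.p6 gene table, and the brightest probe stood for a gene. The 2 groups were tested by lmFit and eBayes of limma 3.58.1 (R 4.3.3, two-sided) with Benjamini-Hochberg adjustment over 25005 genes and transcripts, after the methods' threshold of an FDR of 0.05 and, for DEGs, an absolute log2 fold change of 1. The step was tested on simulated data. The precision is limited by 3 arrays per group.

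The genes and lists were chosen with earlier results of these data known. Named were Rpl3l, Rpl3, Rps6, Rpsa, the stalk genes, paralogs with their parents, members whose probes disagree, called members, and the 2 largest called changes of each related list. Rps21, Rpl7, Rps6kb1, Eef1a1 and the genes shown by sequence alone were named after their values were seen. Some genes are not reported here. Alternatives in scaling, background correction, filter, probe choice, test, blocks and left-out arrays were run, and centring on the members' median was added after seeing the data.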

Additional observations from a re-analysis of the deposited data

How the results depend on the processing

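Rpl3l stayed above 0 and Rpl3 below 0 under all alternatives run. The count of members past the FDR of 0.05 (2 as reported) was 9 without scaling, 4 without the filter on dim probes, 4 with probes well above background on all 6 arrays, 5 with array weights, 8 with a trended and robust eBayes, 7 at an FDR of 0.10, and 0 with the strip as a block or with an unmoderated test. It was 0 to 2 when 1 array was left out, and 0 unless that array was sedentary 1. The count of DEGs (2 as reported) was 1 with normexp, the all-6 filter, the deposited table or centring on the members. It was 0 to 1 when 1 array was left out, and 0 with the strip block or the unmoderated test. Both counts as reported include Rpl37, which was kept through its exercise arrays alone. Limma with the strip block called 0.012% of everything tested, although 4827 genes, 4 of them members, had an unadjusted p under 0.05. The unmoderated test called 2.57% of everything tested, with 8344 genes, 16 of them members, at an unadjusted p under 0.05. Which step caused each change was not tested.

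Rpl3l was at 1.34 but past the threshold no longer with the unmoderated test (adjusted p of 0.0657), at 0.80 with the strip block or within the strip, and at 1.15 to 1.61 when 1 array was left out (limma adjusted p of 0.00847 to 0.0963). Rpl3 passed the threshold with quantile normalization (−0.87), no scaling (−1.11), normexp (−0.72), the all-6 filter, the trended and robust eBayes and the FDR of 0.10 (−0.63 in all 3), the deposited table (−0.79), centring on the members (−0.71) and array weights (−0.83). It was at −0.81 to −0.49 when 1 array was left out and at −0.27 within the strip. The Rpl3l against Rpl3 difference was 1.08 within the strip.

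Replicate numbers are shared by the groups, but same-numbered arrays did not deviate together (r of 0.015, 0.085 and 0.036), so they were not treated as pairs. With the replicate block, 0 members passed the FDR of 0.05 and 0 were DEGs, Rpl3l was at 1.34 (limma adjusted p of 0.0606), and 0% of everything tested was called, with 8591 genes at an unadjusted p under 0.05.

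The median of the members was −0.19 with quantile normalization, −0.32 without scaling, −0.00025 in the deposited table and 0.25 with the array median. The median over all genes, 0.026 as reported, was −0.45, −0.13 and 0.11 in the last 3 and 0.18 without the filter. Members minus all genes, 0.13 as reported and also without scaling, turned negative with quantile normalization (−0.17), normexp (−0.019) and no filter (−0.022).

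Small values changed sign. With quantile normalization these were Rps6 −0.19, Rplp0 −0.19, Rplp1 −0.22, Rplp2 −0.18, Rpsa −0.097, Rpl39 −0.33, Rps27 −0.27, Rpl32l −0.099, Rpl32 −0.26, Rpl10 −0.34, Rps4x −0.24, Rpl10a −0.15, Rps15a −0.15, Rps20 −0.39, Eif5a −0.090 and Tpt1 −0.12. Without scaling they were Rps6 −0.41, Rplp0 −0.29, Rplp1 −0.31, Rplp2 −0.18, Rpsa −0.19, Rpl39l −0.36, Rpl39 −0.38, Rps27l −0.17, Rps27 −0.31, Rpl32l −0.30, Rpl32 −0.34, Rpl10 −0.39, Rps4x −0.46, Rpl10a −0.28, Rps15a −0.33, Rps20 −0.38, Rpl36al −0.19, Eif5a −0.12, Lyar −0.0010, Cd3eap −0.13, Polr2l −0.13, Lep −0.12 and Tpt1 −0.092. In the deposited table they were Rps6 −0.092, Rpl39l −0.043, Rpl39 −0.070, Rpl32 −0.024, Rpl10 −0.073, Rps4x −0.14, Rps15a −0.019 and Rps20 −0.063. Normexp gave Rps6 −0.026, Rpl10 −0.017 and Rps4x −0.059, centring on the members Rps6 −0.014 and Rps4x −0.062, and array weights Rps6 −0.013 and Rps4x −0.027. The probe with the largest SD gave Rps4x −0.0076, Rpl10a −0.078, Rps15a −0.23 and Rps20 −0.039, and the mean of probes Rps15a −0.00062. Rpl36a was at 0.078 with the array median, and Rpl36a at 0.059 and Rps21 at 0.12 with the strip block and within the strip. With 1 array left out, Rps4x ranged from −0.026 to 0.068 and Rpl36a from −0.044 to 0.028.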
